A study of Mus musculus with 9 samples.

Results

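The genes described here are 10 transcripts of the circadian clock, Bhlhe40, Bhlhe41, Per1, Per2, Per3, Dbp, Nr1d1, Nr1d2, Arntl and Ciart, chosen by name among the 49315 gene IDs of the count table of a mouse brain aging study. All 10 were found, and all 10 passed the filter on low counts that left 18492 genes for testing. RNA came from whole brain tissue of wild-type (WT) C57BL/6J males, 5 young (3 months) and 4 old (33 months), 1 library per mouse, with polyA selection and no treatment in either age. The labels give 3 months for all young mice, where the methods text has 3 or 4 months. The contrast asks which transcripts differ in level between young adult and very old brain. Old replicate 2 was not analysed here. The hour of the day at which the brains were collected is not given in the sources used here.

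The circadian clock is a feedback loop of transcription factors that runs in most cells of the body. The positive arm, a pair of bHLH-PAS proteins made by Arntl (also called Bmal1) and Clock, binds E-box sequences and switches on its own inhibitors, among them the Per and Cry genes, whose proteins return to the nucleus and stop it. The REV-ERB receptors made by Nr1d1 and Nr1d2 repress Arntl, so that in tissues with a running clock Arntl peaks roughly opposite in the day to Per, Nr1d1 and Dbp. In brain the master pacemaker lies in the suprachiasmatic nucleus, a small part of the hypothalamus, and other regions and glia carry clocks of their own.

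Between 14229259 and 21150439 reads were counted on genes per library, and the clock genes received from 179 counts for the lowest Ciart library to 3013 for the highest Per1 library. Levels are given as CPM, counts scaled to library size, with TMM factors, and differences as log2 fold changes of old over young. P-values are from the quasi-likelihood test of edgeR, adjusted over all 18492 genes by the Benjamini-Hochberg method. By this test 2031 genes (11.0%) passed an adjusted p of 0.05, 1126 (6.09%) higher and 905 (4.89%) lower in old mice. Every marker gene listed for neurons, astrocytes, oligodendrocytes and microglia was detected. Young replicate 4 stood apart from the other young mice in Arntl, Per2 and microglia markers, and the results that it moves are given with and without it. Without this mouse 6 of the 10 clock genes rose and 1 fell, beside 11.2% of 18132 genes that passed, Dbp being the call that was lost.

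Of the 10 clock genes, 7 rose and 1, Arntl, fell in old brain at an adjusted p under 0.05, beside the 11.0% of all genes that passed, while Per1 and Ciart did not pass. The median log2 fold change of the 10 was 0.23, against -9.2e-05 for all genes tested. Every rise was below the additional fold threshold of 0.58 on the log2 scale that the study used, which 0 of the 10 genes and 2.50% of all genes passed together with the adjusted p. In 6 of the 10 genes every old mouse lay above every young mouse, as in 6.50% of all genes, and in 0 of the 10 every old mouse lay below, as in 6.08%. The genes were chosen with earlier results of these data known, so these counts describe the 10 genes and are no independent evidence.

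**Figure D1:**
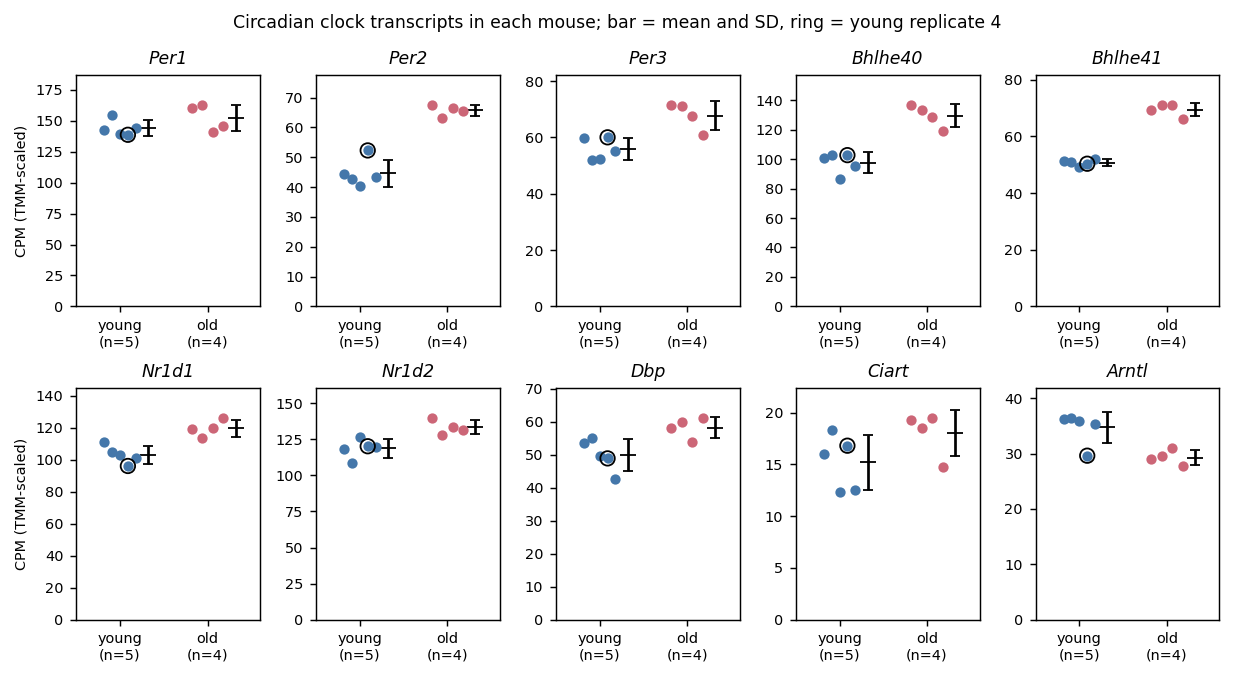
Level of each clock gene (vertical axis, TMM-scaled CPM from 0, a separate scale for each gene) in each of the 5 young and 4 old mice; points are mice, bars are mean and SD, and the ring marks young replicate 4. Bhlhe41 shows the tightest groups, at 49.1 to 51.9 CPM in young and 66.2 to 71.1 CPM in old mice, and young replicate 4 is the low young point for Arntl and the high young point for Per2.

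The period genes encode the inhibitors of the loop. Per2 (chr1:91415982-91459324, minus strand, GRCm38) gave the largest change among the 10. Its level was 44.3, 42.7, 40.4, 52.3 and 43.2 CPM in young replicates 1 to 5 and 67.6, 63.2, 66.5 and 65.6 CPM in old replicates 1, 3, 4 and 5. The groups did not overlap, and the highest young value was that of young replicate 4. The means were 44.6 ± 4.53 CPM (SD, n = 5) and 65.7 ± 1.87 CPM (SD, n = 4), a log2 fold change of 0.56 ± 0.060 (SE), or 47.2% more in old mice (edgeR's quasi-likelihood test, adjusted p = 3.3e-05). Without young replicate 4 the log2 fold change was 0.62.

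Per3 (chr4:151003652-151044665, minus strand), a period gene that is less needed for the rhythm itself, rose by a smaller amount. It measured 59.7, 51.9, 52.5, 60.0 and 55.2 CPM in the young and 71.6, 71.2, 67.6 and 60.8 CPM in the old mice. The ages did not overlap, but the lowest old mouse was within 1 CPM of the highest young mouse. The log2 fold change was 0.28 ± 0.057 (edgeR, adjusted p = 0.0050).

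Per1 (chr11:69095217-69109960, plus strand) is also an acutely induced gene, answering to light, neuronal activity and glucocorticoids. It ranged from 139 to 155 CPM in young and from 141 to 163 CPM in old mice. The groups overlapped, and the log2 fold change of 0.08 did not pass (95% interval -0.017 to 0.18, edgeR, adjusted p = 0.29). The interval lies below the value of Per2, whose own 95% interval ran from 0.43 to 0.68, although the difference between the genes was not tested.

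The promoters of Per1 and Per3 hold different clock-related letters in the 250 bases before a RefSeq start (GRCm38.p6). Each is printed on the gene's strand with the match in capitals, CACGTG being the canonical E-box bound by ARNTL with CLOCK and TTATGTAA a D-box of the kind bound by DBP, TEF and HLF and by NFIL3.
Per1 E-box, chr11:69098774-69098797, plus strand: acccaagtcCACGTGcagggatgt
Per3 D-boxes, chr4:151044807-151044879, minus strand: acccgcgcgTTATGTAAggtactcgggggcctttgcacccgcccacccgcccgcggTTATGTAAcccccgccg
CACGTG, searched on both strands, was present in 6.02% of 32851 such windows of all genes. TTATGTAA was present in 0.819% of them, and 2 or more copies, as in Per3, in 6 windows (0.0183%). Per1 has another RefSeq start, and the window before that start held no CACGTG. The printed Per1 site lies inside the gene span given above. These are matches of letters, not measured binding.

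Bhlhe40 and Bhlhe41 (DEC1 and DEC2) encode bHLH repressors that compete for E-boxes and so damp the positive arm. Bhlhe41 (chr6:145858243-145865558, minus strand) ranked 8 among all genes by p. Its level was 51.4, 51.1, 49.1, 50.3 and 51.9 CPM in young and 69.4, 70.9, 71.1 and 66.2 CPM in old mice. The ages were separated by a gap far wider than either group. The difference was 0.45 ± 0.040, on the log2 scale, or 36.7% more in old mice (edgeR, adjusted p = 5.5e-06). Its spread within an age, an SD of 0.039 on the log2 scale, was at the 5.08 percentile of the 12861 genes with a mean log2 CPM of at least 2, whose median SD was 0.091.

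Bhlhe40 (chr6:108660629-108666925, plus strand), which like Per1 is induced by activity and hormones, rose nearly as much. It measured 100.7, 102.7, 86.3, 102.7 and 95.2 CPM in young and 137, 133, 128 and 119 CPM in old mice, with no overlap. This is a log2 fold change of 0.41 ± 0.053, or 32.4% more in old mice (edgeR, adjusted p = 0.00018). The counts of both genes may be affected, in either direction, by overlapping genes on the opposite strand, since counting by strand is not stated for these libraries. For Bhlhe41 this is Gm43909, which shares 19.1% of its exon bases and held 53 to 68 counts, and for Bhlhe40 it is 0610040F04Rik, which shares 2.51% and held 17 to 34 counts.

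The Bhlhe41 promoter holds 1 canonical E-box, at 153 bases before the RefSeq start.
Bhlhe41 E-box, chr6:145865559-145865582, minus strand: tacgttccgCACGTGagctgggtg
The reference table of promoters held no window for Bhlhe40 or Per2.

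Nr1d1 and Nr1d2, the heme-sensing REV-ERB receptors that repress Arntl, rose modestly. Nr1d1 (chr11:98767932-98775333, minus strand) measured 111.3, 104.8, 102.9, 96.1 and 100.9 CPM in young and 119, 113, 120.0 and 126 CPM in old mice. The groups were separate, with young replicate 4 the lowest of all. Old exceeded young by 0.21 ± 0.044 on the log2 scale (edgeR, adjusted p = 0.0049). Nr1d1 overlaps Thra on the opposite strand over 8.55% of its exon bases, and Thra held 7470 to 12218 counts against 1498 to 2246 for Nr1d1.

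Nr1d2 (chr14:18204054-18239127, minus strand) measured 118, 109, 126, 120.2 and 119.8 CPM in young and 140, 128, 134 and 132 CPM in old mice. The gap between the ages was narrow, from 126.4 to 128.2 CPM. The change was 0.17 ± 0.043 on the log2 scale (edgeR, adjusted p = 0.017). Nr1d2 has the letters AGGTCA, the core of the element that ROR and REV-ERB receptors bind, in its promoter, as do Per1 and 14% of all windows.
Nr1d2 AGGTCA, chr14:18239169-18239192, minus strand: tggaagaagAGGTCAggaccgctc

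Dbp and Ciart are read as outputs of the E-box arm. Dbp (chr7:45705088-45710203, plus strand) encodes a PAR bZIP activator that binds D-boxes. It measured 53.5, 55.2, 49.5, 48.9 and 42.7 CPM in young and 58.1, 59.9, 53.7 and 61.1 CPM in old mice. Old replicate 4 lay inside the young range, so the groups overlapped. The log2 fold change was 0.22 ± 0.065 (edgeR, adjusted p = 0.040). This call was the least stable of the 8. It was lost when young replicate 3, 4 or 5 or old replicate 1, 3 or 5 was left out, at adjusted p from 0.067 to 0.112. Sphk2, on the opposite strand, shares 18.0% of the exon bases of Dbp and held 392 to 559 counts against 691 to 1094 for Dbp.

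Ciart (chr3:95878503-95882251, minus strand; also called CHRONO) encodes a repressor that acts on the ARNTL and CLOCK pair. It was the lowest of the 10 in CPM and the most variable, with values of 16.0, 18.4, 12.3, 16.8 and 12.5 CPM in young and 19.3, 18.5, 19.5 and 14.8 CPM in old mice. Old replicate 5 lay inside the young range, so the groups overlapped, while old replicates 1, 3 and 4 lay above every young mouse. The log2 fold change of 0.24 was as large as that of Dbp, but its 95% interval ran from -0.027 to 0.50 and it did not pass (edgeR, adjusted p = 0.25). Its SD within an age, 0.23 on the log2 scale, was at the 94.2 percentile. The promoter of Ciart holds 3 canonical E-boxes, a number reached in 20 windows (0.0609%) of all genes.
Ciart E-boxes, chr3:95882258-95882353, minus strand: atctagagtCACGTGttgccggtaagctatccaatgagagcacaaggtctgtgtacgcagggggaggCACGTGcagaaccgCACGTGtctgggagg
Among the 8 clock genes with a promoter window, 3 held CACGTG. Of these Bhlhe41 passed the test with age, while Per1 and Ciart did not. The shorter letters CANNTG were in 5 of the 8 and in 66.2% of all windows. No window of the 8 held the D-box TTACGTAA, the cAMP response element TGACGTCA or the glucocorticoid receptor letters AGAACA, which 0.113%, 1.55% and 16.1% of all windows held.

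Arntl (chr7:113207465-113314126, plus strand), the positive arm, was the gene of the 10 that fell. It measured 36.3, 36.4, 35.8, 29.6 and 35.4 CPM in young and 29.0, 29.5, 30.9 and 27.7 CPM in old mice. Of the young mice 4 lay above every old mouse, and young replicate 4 lay among the old ones. The log2 fold change was -0.24 ± 0.064, or -15.5% (edgeR, adjusted p = 0.019). Without young replicate 4 it was -0.30 (adjusted p = 0.0014). The call was lost without young replicate 1 (adjusted p = 0.054) and without old replicate 5 (0.065).

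With Arntl lower and Per2, Bhlhe41, Nr1d1 and Dbp higher, the ratio of each to Arntl must differ more than either level. The ratios are therefore given as a description. The Per2 to Arntl ratio of CPM was 1.22, 1.17, 1.13, 1.77 and 1.22 in young replicates 1 to 5 and 2.33, 2.14, 2.15 and 2.37 in the old mice. The ages did not overlap, and young replicate 4 lay between them. The Bhlhe41 to Arntl ratio ran from 1.37 to 1.70 in young and 2.30 to 2.40 in old mice, and the Nr1d1 to Arntl ratio from 2.85 to 3.25 and from 3.84 to 4.55. For Dbp the ratio came close, at 1.21 to 1.65 in young and 1.74 to 2.21 in old mice. In the last 3 ratios, too, young replicate 4 was the highest young mouse. The ratios use the same contrast as the tests above and received no test.

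**Figure D2:**
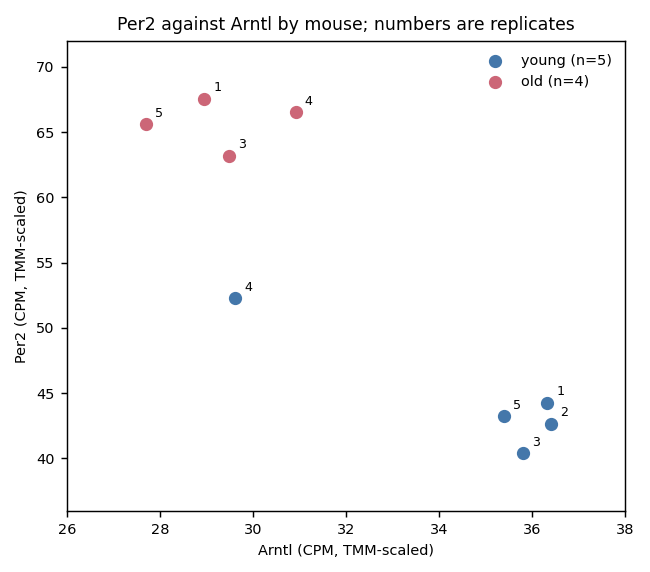
Per2 (vertical axis) against Arntl (horizontal axis), both in TMM-scaled CPM on axes that do not start at 0, 1 point per mouse with its replicate number. The other 4 young mice sit at lower right, the 4 old mice at upper left, and young replicate 4 in between at 29.6 CPM of Arntl and 52.3 CPM of Per2.

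Young replicate 4 differed from the other young mice to a different degree in each clock gene. Its Bhlhe41 (50.3 CPM), Dbp (48.9), Nr1d2 (120.2) and Ciart (16.8) lay inside the range of the other young mice, its Per2, Per3 (60.0) and Bhlhe40 (102.7) above it, and its Per1 (139), Nr1d1 (96.1) and Arntl below it. For Per1, Per3 and Bhlhe40 the next young mouse was less than 1 CPM away.

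Across mice of one age, the clock genes did not move together to an extent that 9 mice could show. Of the 45 pairs, correlated on log2 CPM centred on the mean of each age, 0 passed an adjusted p of 0.05 in an exact permutation test over the 2880 orders of mice within ages, for Pearson's r or Spearman's rho. The unadjusted p was under 0.05 in 1 pair by either measure. This was Bhlhe40 with Ciart (r = 0.88, exact permutation p = 0.0049, adjusted p = 0.22, rho = 0.80, p = 0.023, adjusted p = 0.89), and r was 0.76 without the mice farthest from the median of Bhlhe40. For Per2 with Arntl r was -0.81 (exact permutation p = 0.11, adjusted p = 0.75, rho = -0.47, p = 0.18) and 0.047 without young replicates 3 and 4, so that this relation rested on those mice. Among the 36 pairs without Arntl the median r was 0.12.

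The genes whose levels varied most like those of Dbp within ages, out of 12833 genes over the 9 mice, were Gm43682 (r = 0.96), Npas4 (0.96) and Gsg1l (0.95). For Arntl they were Prkx (0.97), Srp54c (0.95) and Neo1 (0.94). None of the other clock members was among the 10 genes most like either. All these libraries share their TMM scaling and young replicate 4, and the coefficients are given as a description.

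On the scale of the deposited TPM values, which divide by gene length and so allow levels to be compared between genes, Nr1d1 was the most abundant of the 10 in all 9 libraries (68.2 to 114 TPM) and Arntl the least (8.03 to 16.2 TPM). Per1, Nr1d2 and Bhlhe40 shared ranks 2 to 4 and changed places between libraries, Per1 lying above Nr1d2 in 6 of 9 and Nr1d2 above Bhlhe40 in 5 of 9. Dbp was at rank 5 in every library (32.0 to 56.4 TPM). Per2, Bhlhe41, Ciart and Per3 filled ranks 6 to 9, and neighbours in this group did not keep their order, Per2 lying above Bhlhe41 in 5, Bhlhe41 above Ciart in 8 and Ciart above Per3 in 7 of 9 libraries.

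Further clock genes were counted in the same way. As the members and these genes were chosen with earlier results known, the lists are not compared. Of 31 other clock genes, all tested, 6 rose (Cry1, Cry2, Tef, Usp2, Nampt and Crebbp), 0 fell, and the median log2 fold change was 0.05. The share that passed was 19.35%, beside 11.0% of all genes. In 6 of the 31 every old mouse lay above every young mouse, as in 6.50% of all genes, and in 1 every old mouse lay below, as in 6.08%. Counting either direction, 10 of the 31 had an unadjusted p under 0.05 by edgeR's test, beside 4712 of all 18492 genes. Cry1 and Cry2, the cryptochromes that act with the PER proteins, had log2 fold changes of 0.35 ± 0.076 (edgeR, adjusted p = 0.0073) and 0.18 ± 0.044 (0.012). The level of Cry1 lay at 18.8 to 24.5 CPM in the young group and at 25.5 to 28.2 CPM in the old group.

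Clock, the partner of ARNTL, had a log2 fold change of -0.04 (95% interval -0.13 to 0.060, edgeR, adjusted p = 0.67), and Npas2, which can stand in for it, of 0.08 (-0.045 to 0.21, adjusted p = 0.42). The interval of Clock lies above the value of Arntl but overlaps the 95% interval of Arntl, -0.38 to -0.11. The difference between these genes was not tested. Among the PAR bZIP genes related to Dbp, Tef rose by 0.20 ± 0.045 (edgeR, adjusted p = 0.0095), while Hlf was at 0.14 (adjusted p = 0.10, but 0.043 without young replicate 4 and 0.037 without old replicate 4). Nfil3, the repressor that competes with them for D-boxes, was at -0.24 (adjusted p = 0.087). The nuclear receptors Rora and Rorb, which activate Arntl at the element that REV-ERB proteins occupy, were at -0.09 (adjusted p = 0.25) and -0.10 (0.35).

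Of the other genes that rose, Nampt makes the NAD precursor that feeds back on the clock and Crebbp is a histone acetyltransferase and coactivator of CLOCK and ARNTL. Nampt went from 51.1 ± 1.49 to 58.2 ± 0.915 CPM (log2 fold change 0.18, edgeR, adjusted p = 0.0069), and Crebbp had a log2 fold change of 0.19 (0.0043). Usp2, a rhythmic deubiquitylase, rose by 0.20 (0.026), a call that was lost without young replicate 3 or 5 or old replicate 1 or 4 (adjusted p 0.058 to 0.075). The E-boxes of Cry1 and Tef are shown for comparison with those above. Tef has 2 RefSeq starts, each with 1 CACGTG before it, and the site that does not overlap an annotated exon is printed.
Cry1 E-box, chr10:85185100-85185123, minus strand: gccggtggtCACGTGgggtgcatg
Tef E-box, chr15:81811267-81811290, plus strand: ctggcccagCACGTGtctacatcg

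**Figure D3:**
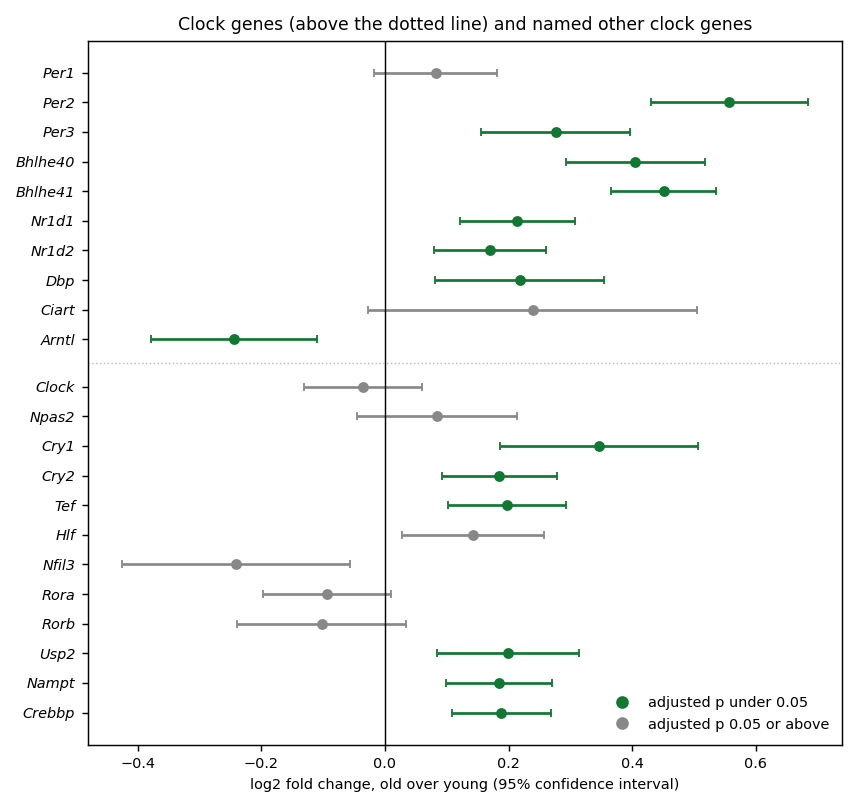
Log2 fold change of old over young (horizontal axis) with its 95% confidence interval for the 10 clock genes, above the dotted line, and the 12 other clock genes named; green points passed an adjusted p of 0.05 in edgeR's quasi-likelihood test. Arntl is the only green point left of 0, and Clock lies at -0.04 with an interval across 0.

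Several clock genes are also switched on by signals other than the clock, so genes known to share such inducers with Per1 and Bhlhe40 were counted. Of 15 immediate early genes of neuronal activity, 0 rose and 8 fell, beside 4.89% of all genes that fell, with a median log2 fold change of -0.33. Arc, which encodes a synaptic protein, went from 202 ± 13.5 to 147 ± 8.92 CPM (log2 fold change -0.45, edgeR, adjusted p = 4.8e-05), and Egr2, a zinc finger factor gene, was at -0.75 (0.00087). By edgeR's test no gene of the list passed in the direction of Bhlhe40. In either direction 10 of the 15 had an unadjusted p under 0.05, beside 4712 of all 18492 genes.

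Of 11 genes induced by glucocorticoids, 7 rose and 0 fell, beside 6.09% of all genes that rose, with a median of 0.56. Without young replicate 4, 6 rose. Fkbp5, a chaperone of the glucocorticoid receptor, went from 32.9 ± 4.10 to 59.8 ± 7.77 CPM (log2 fold change 0.86, edgeR, adjusted p = 0.00078), the sulfotransferase gene Sult1a1 was at 0.93 (0.0020) and the lipid droplet gene Plin4 at 2.29 (0.0050). The summed level of the list was 469 to 614 CPM in young and 697 to 980 CPM in old mice, with young replicate 4 the highest young mouse. Of 8 temperature-responsive genes, 1 rose and 3 fell, beside 11.0% of all genes in either direction. Rbm3, a cold-induced RNA-binding protein gene, was higher (log2 fold change 0.53, adjusted p = 0.0031) and the heat shock chaperone genes Hsph1 (-0.40), Hsp90aa1 (-0.23) and Hspa8 (-0.14) fell. The call of Hspa8 was at the threshold (edgeR, adjusted p = 0.050) and was lost without young replicate 2, 3, 4 or 5 or old replicate 1, 3 or 5 (adjusted p 0.050 to 0.148). The part of these signals in the clock values was not tested.

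**Figure D4:**
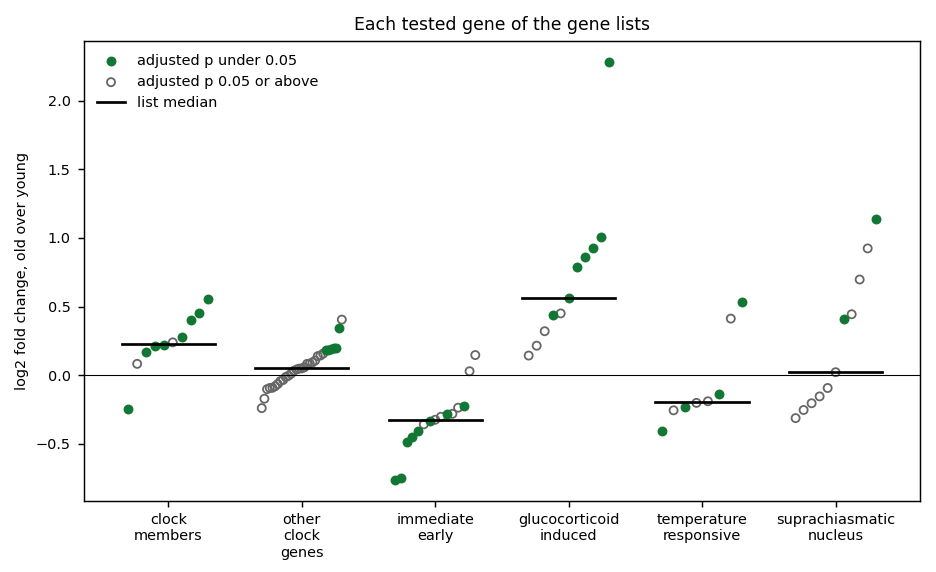
Log2 fold change of old over young (vertical axis) for each tested gene of 6 lists, sorted within a list; filled points passed an adjusted p of 0.05 and bars are list medians. The clock genes have a median of 0.23, the immediate early genes of -0.33 and the glucocorticoid-induced genes of 0.56.

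The suprachiasmatic nucleus is a small part of the tissue sampled, and several of its typical genes are also made elsewhere in the brain. Of 13 genes typical of the suprachiasmatic nucleus, Nms and Six6 did not exceed 8 counts in any library and were not tested. Of the other 11, 2 rose and 0 fell, with a median of 0.02, beside 11.0% of all genes that passed in either direction. Vip, a peptide also made by cortical interneurons, went from 12.5 ± 1.79 to 16.7 ± 1.64 CPM (log2 fold change 0.41, edgeR, adjusted p = 0.014). Vipr2, its receptor, went from 5.27 ± 1.19 to 11.6 ± 4.34 CPM (1.14, adjusted p = 0.024), and this call was lost without young replicate 1, 3 or 4 or old replicate 1 (adjusted p 0.054 to 0.063). By edgeR's test 3 of the 11 had an unadjusted p under 0.05, beside 4712 of all 18492 genes.

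Markers of some cell types also differed between the ages, and in bulk tissue fewer cells of a type and less RNA per cell cannot be told apart. Their counts are to be read beside the 11.0% of all genes that passed, and their summed levels are CPM of the whole library without TMM factors. Of the neuron and astrocyte markers 0 of 6 each passed edgeR's test (0 and 1 with an unadjusted p under 0.05, beside 4712 of all 18492 genes). The summed level of the neuron list was 4656 to 5143 CPM in young and 4641 to 5224 CPM in old mice, and that of the astrocyte list 4040 to 4358 and 4137 to 4325 CPM.

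Microglia markers depended on young replicate 4. Of 8 homeostatic microglia markers 1 rose, and 4 rose without this mouse. Their sum was 305 CPM in young replicate 4, against 221 to 249 CPM for the remaining 4 young mice and 293 to 350 CPM for old ones. Of 6 markers of activated microglia 2 rose, and 6 rose without this mouse. Their sum was 66.9 CPM in young replicate 4, against 21.6 to 26.6 CPM for the remaining 4 and 58.4 to 74.3 CPM for old ones. In this mouse, then, both microglia sums and Arntl (29.6 CPM) lay within the old range, Per2 (52.3 CPM) lay between the ages, and Bhlhe41 (50.3 CPM) lay among the other young mice.

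Among the cell type lists, the sums of 3 did not overlap between the ages, as in 12.6% of all genes taken singly. The endothelial list was at 174 to 190 CPM in young and 205 to 247 CPM in old mice. Of its genes 3 of 5 rose (Pecam1, Flt1 and Ly6c1), and 2 without young replicate 4. Cldn5 (log2 fold change -0.14, edgeR, adjusted p = 0.40) and Tek (-0.0089, 0.96) did not pass. The blood list, of which 3 of 4 rose and 0 passed without young replicate 4, was at 81.5 to 106 and 118 to 372 CPM. The oligodendrocyte precursor list, of which 2 of 4 fell (Gpr17 and Olig1), was at 239 to 257 and 213 to 221 CPM. Its other genes, Pdgfra (log2 fold change 0.05, edgeR, adjusted p = 0.61) and Cspg4 (-0.11, 0.27), did not pass. Of 6 oligodendrocyte markers 2 rose and 1 fell (6041 to 7257 and 6661 to 8174 CPM), and of 5 choroid plexus markers 1 fell (518 to 707 and 433 to 736 CPM). No marker was at 0 in all libraries. The part of cell composition in the clock values was not tested.

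**Figure D5:**
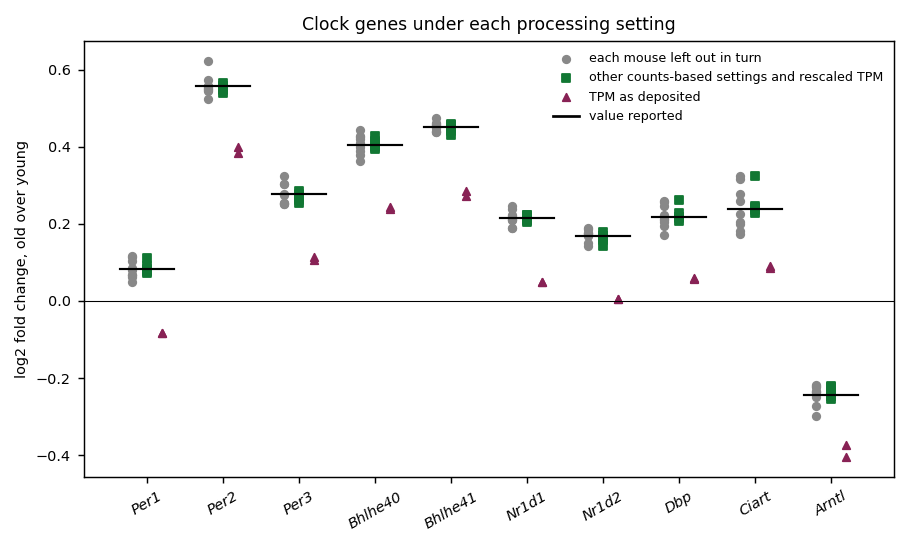
Log2 fold change of old over young (vertical axis) of each clock gene as reported (black bar), with each mouse left out in turn (grey circles), under the other counts-based settings and rescaled TPM (green squares) and on TPM as deposited (purple triangles). All 10 genes keep their sign under every setting except Per1, which is at -0.08 on TPM as deposited, a scale on which the median of all genes is also shifted, by -0.14 to -0.16.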

How the data were processed

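PolyA-selected RNA of whole brain from 5 young and 4 old mice was analysed, grouped by the age in the sample labels. Per the study's methods, the authors trimmed reads with Trimmomatic, aligned them to GRCm38 with STAR and used featureCounts to count reads of unique position over exons. The counts were deposited as whole numbers, not normalized. For the deposited TPM values, the gene lengths used by the authors are not given in the sources used here. DESeq2 is named in the submitters' processing notes; the deposited normalized counts were not used. The tables held 1 further column each that belonged to no listed sample and was left out.

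From the counts, genes were kept with filterByExpr (minimum count 10, minimum total 15), scaled with TMM and compared with edgeR's quasi-likelihood test (robust) with Benjamini-Hochberg adjustment. A gene is called at an adjusted p under 0.05. Each standard error is the fitted change over the root of its F statistic, and log2 CPM used a prior count of 2. Correlations across mice used exact permutation within ages, two-sided. On simulated counts the test recovered 59% of 200 genes changed by a log2 fold change of 0.5 (6.35% of calls false; 18162 genes) and 82.5% of those changed by 1 (5.17% false; 18221 genes), and called 0 with none changed. Each library was taken as a replicate from its label. Libraries of an age differed by more than sampling noise (chi-square per degree of freedom at least 4.09), which alone cannot show that they are separate mice. Alternatives were other size factors, filters, tests, units and thresholds, a replicate block and each mouse left out. TPM rescaled by TMM, TPM less each library's median, a fit without robust estimation and list counts without young replicate 4 were added after the data were seen.

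The replicate numbers did not pair the mice. The correlations of the deviations of same-numbered mice were 0.17, -0.12, 0.088 and -0.024.

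The members and gene lists were chosen with earlier results of these data known. Genes named are the 10 members, the called and core genes among the other clock genes, and the called, highest and lowest genes of the remaining lists. For Dbp and Arntl they are also the 10 genes most like them in log2 CPM within ages (mean of at least 2). Of the last 2 groups the text prints some. Genes of the oligodendrocyte precursor and endothelial lists are named as well, outside the 46 checked for outlying mice. Symbols and gene positions are from GENCODE M21 (GRCm38), which lacked 345 of the 49315 IDs, and promoters from RefSeq (GRCm38.p6; 8 of 10 members matched). Versions were scipy 1.17.1 and, in R 4.3.3, DESeq2 1.42.0, limma 3.58.1 and edgeR 4.0.16.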

Additional observations from a re-analysis of the deposited data

Results flagged for a closer look

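Among the log2 CPM values of 46 named genes in each age, 92 combinations of gene and age, 3 held a mouse set apart from the others by Dixon's 95% criterion, where chance alone at 1 in 20 would give 4.6. In young mice Arntl was lowest in young replicate 4, with a gap of 0.8643 of the whole range (29.6 CPM beside 35.4 to 36.4 CPM in the other young mice). Rora was lowest in young replicate 2, with a gap of 0.7474 (152 CPM beside 164 to 168 CPM). Dusp1, an immediate early gene, was highest in old replicate 5, with a gap of 0.8542 (47.8 CPM beside 41.6 to 42.4 CPM).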

How the results depend on the processing

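Of 8 clock genes called, 0 passed with the added fold threshold of 0.58, as did 0 of the 6 other clock genes, 463 of all 2031 called genes, 1 of 2 suprachiasmatic genes and 7 of 19 induced genes. On log2(TPM + 1) and log2(TPM + 0.1) by limma, 0 and 0 clock genes, 0 and 0 other clock genes, 594 and 600 of all genes and 10 and 11 induced genes were called. On these scales the median of all genes shifted by -0.14 and -0.16, and the median TPM of the genes tested ranged from 8.41 to 14.0 between libraries. After rescaling TPM by TMM, 6 clock genes were called, all higher, with Dbp at an adjusted p of 0.075 and Arntl at 0.063 (limma). The sign reversed on both TPM scales for Per1 (-0.0824 and -0.0834), Npas2 (-0.0711 and -0.0746), Hlf (-0.0211 and -0.0213), Fosb (-0.0103 and -0.0103) and Errfi1 (-0.0177 and -0.0180), none of them called in the fit reported. Hlf was called on counts without a filter (adjusted p = 0.023) and without young replicate 4 (0.043) or old replicate 4 (0.037). The within-age correlations passed in 34 of 45 pairs on log2(TPM + 1), and in 0 once each library's median was subtracted. The E-box count rose from 3 to 5 members with CANNTG.

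With each mouse left out in turn, 6 to 8 clock genes, 5 to 7 other clock genes, 1516 to 2034 of all genes, 1 to 3 suprachiasmatic and 13 to 17 induced genes were called, and Bhlhe40, Bhlhe41, Per2, Per3, Nr1d1 and Nr1d2 kept their calls in 9 of 9 fits. Of 170 fits of single clock genes outside the TPM scales as deposited, 156 kept direction and call, 12 lost the call and 2 gained it (Ciart without a filter on low counts, adjusted p = 0.046, and with the block).

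With the replicate number as a block, although the numbers did not pair the mice, 7 clock genes, 6 other clock genes, 1811 of all genes, 19 induced and 0 suprachiasmatic genes were called. Nr1d2 (adjusted p = 0.057) and Arntl (0.070) lost the call, and Ciart (0.023) gained it.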
